A study of Saccharomyces cerevisiae with 4 samples.

Results

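The ATG genes of budding yeast encode the machinery of autophagy. They were taken as every row of the deposited table whose standard name is ATG followed only by digits, which gave 34 of 6782 gene rows. The cells were Saccharomyces cerevisiae of the W303 background, a laboratory strain, and all of them carried the same insertion at LEU2, a single copy of the 6xIAPP construct under an estradiol-inducible promoter. IAPP is islet amyloid polypeptide, a human peptide hormone that forms amyloid. 2 uninduced cultures were kept for 6 h with DMSO, the solvent, and 2 induced cultures for 6 h with 100 nM estradiol, all in log phase. Messenger RNA was measured by sequencing to ask what expression of the construct changed. No culture with estradiol but without the construct was analysed here, so the inducer and the construct cannot be told apart, and whether the cultures came from 1 clone is not given in the sources used here.

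In autophagy a double membrane, the phagophore, grows around cargo, closes, and fuses with the vacuole, where the cargo is degraded. The Atg1 kinase complex starts the process, vesicles carrying Atg9 and the lipid-transfer protein Atg2 supply membrane, and a lipid kinase marks it with phosphatidylinositol 3-phosphate (PI3P). A pair of ubiquitin-like conjugation systems then attaches Atg8 to the membrane, where receptors that bind Atg8 bring in selected cargo such as mitochondria, peroxisomes or stretches of the endoplasmic reticulum (ER). In growing yeast many of the same proteins deliver vacuolar hydrolases through the cytoplasm-to-vacuole targeting (Cvt) pathway. Starvation or inhibition of the TORC1 kinase turns on bulk autophagy. Transcript levels do not measure autophagic flux.

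Levels are given in normalized CPM, read counts scaled to a normalized library size, for uninduced libraries 1 and 2 and induced libraries 1 and 2 in that order. Reads recovered from these values came to 10397606 to 15582338 per library, and the lowest count of any ATG gene in any library was 83 reads. The libraries of a pair differed, on the log2 scale, with an SD of 0.12 in the uninduced and 0.11 in the induced group, taken over 5017 well-expressed genes. Of the genes that mark mating type, the 4 alpha-cell genes summed to 2540 and 2524 CPM uninduced and 574 and 579 CPM induced, and the 6 a-cell genes to 52.5 and 49.8 CPM uninduced and 83.9 and 81.8 CPM induced, with 3 of the 6 under 1 CPM in the mean. The labels do not give the mating type, and the part of this shift in the ATG results was not tested. In a bulk culture a change shared by all cells and one held by some of them cannot be told apart.

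Most ATG transcripts were modestly higher after induction. Of the 34 genes, 20 rose and 2 fell in the limma test at an adjusted p under 0.05, and 12 passed in neither direction. That is 58.8% higher and 5.88% lower, where 35.6% of all genes tested were called higher and 37.0% lower. Both induced libraries lay above both uninduced libraries for 24 ATG genes (70.6%) and below them for 2 (5.88%), against 42.9% and 43.1% of all genes. Fold changes are induced minus uninduced, in log2(CPM + 1) units, and their median was 0.24 for the ATG genes and -0.00042 for all 6037 genes tested. edgeR on the recovered reads called the same 22 genes, 20 higher and 2 lower (36.4% and 36.7% of all genes), and DESeq2 called 18 higher and 1 lower (30.8% and 32.5%). Summed over the 34 genes, the level was 2275 and 2216 CPM in the uninduced libraries and 2790.4 and 2776 CPM in the induced libraries.

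The steps were small, and the share of larger rises was near that of all genes. Among the 20 genes that rose the ratio of mean CPM ran from 1.12 to 2.89, and 14 of them stayed under 1.5. At a ratio of at least 1.5 with a call, 6 ATG genes were higher (17.6%, against 16.7% of all genes) and 1 was lower (2.94%, against 18.5%). Tested against a 1.2-fold change, 9 rose (26.5%, against 21.3%) and 1 fell (2.94%, against 23.2%). In the authors' deposited table, 8 were higher at an adjusted p under 0.05 (23.5%, against 20.3% of the same genes) and 1 was lower (2.94%, against 21.6%); all 9 were also called by limma. By these counts, given as a description without a test, the share of ATG genes that fell was below that of all genes, while the share with the larger rises was near it. The 44 genes named VPS, which act in vacuolar protein sorting, gave 20 higher and 7 lower of 41 tested in limma, with a median of 0.16. Those shares are 48.8% and 17.1%, against 35.6% and 37.0% of all genes.

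**Figure D1:**
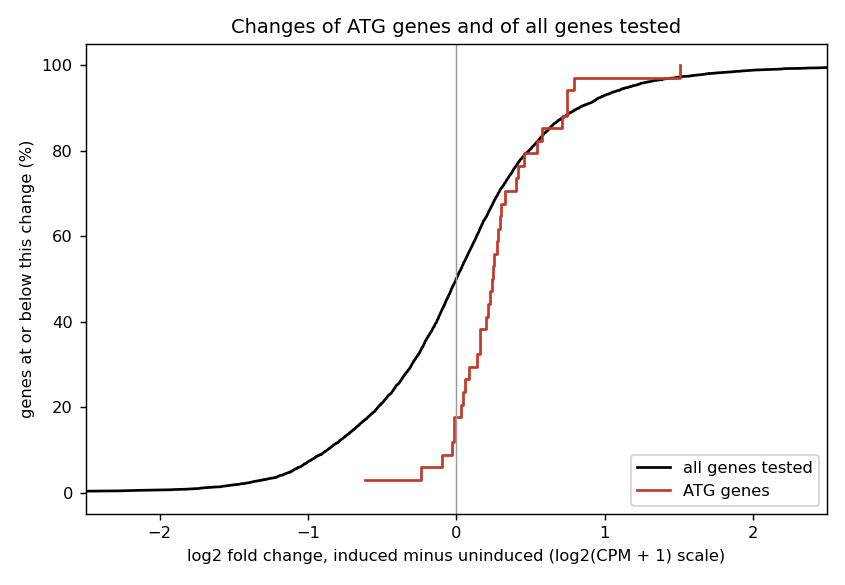
Cumulative share of genes, in percent, against the log2 fold change (induced minus uninduced, log2(CPM + 1) scale) for the 34 ATG genes and all 6037 genes tested. The ATG curve starts at -0.61, has its median at 0.24 and meets the curve of all genes in its upper part.

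The Atg1 kinase complex, which starts phagophore formation, held the gene with the largest change. Of its 6 genes 5 rose (83.3%, against 35.6% of all genes) and 0 fell (against 37.0%). ATG17 (YLR423C, chromosome XII, 971917 to 973170, minus strand, 1 coding exon) encodes the scaffold that dimerises the complex in starvation. It stood at 37.0 and 35.6 CPM in the uninduced libraries and 100.7 and 109 CPM in the induced libraries. The groups were far apart, with a ratio of means of 2.89 and a log2 fold change of 1.505 ± 0.07 (SE, adjusted p = 1.1e-09). Of all genes tested, 97.3% had a signed log2 fold change at or below that of ATG17, genes that fell included. ATG11 (YPR049C), the scaffold that links the kinase to cargo receptors in growing cells, had 38.0 and 35.9 CPM uninduced and 57.7 and 53.6 CPM induced (0.58 ± 0.08, adjusted p = 1.93e-05). ATG1 (YGL180W), the kinase itself, had 80.6 and 76.8 CPM uninduced and 109 and 99.9 CPM induced (0.40 ± 0.06, adjusted p = 9.31e-05). Neither pair of groups overlapped, although ATG1 did not pass the test against a 1.2-fold change (adjusted p = 0.0568). That test is among the 15 alternatives whose spans of adjusted p are given, and a gene that changed less than 1.2-fold cannot pass it. For ATG9, ATG13, ATG21, ATG32 and ATG39, which changed less, it ended the call and set the upper end of the span.

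The remaining subunits moved less. Against a 1.2-fold change the count of 5 for the complex was 2, where 21.3% of all genes were called higher. ATG31 (YDR022C), which bridges the scaffold to ATG29, went from 34.4 and 36.2 CPM to 41.9 and 47.5 CPM (0.33 ± 0.08, adjusted p = 0.0037), and its call ended without induced library 2 (0.24, adjusted p = 0.0643; alternatives spanned 0.000413 to 0.401). ATG13 (YPR185W), the regulatory subunit whose phosphorylation TORC1 controls, rose by the smallest step of the complex, from 182 and 181 CPM to 203 CPM in both induced libraries (0.16 ± 0.05, adjusted p = 0.0105). Its replicates were close together, but the call ended without induced library 1 (adjusted p = 0.052) or 2 (adjusted p = 0.0503) and over all alternatives its adjusted p ran from 0.000218 to 1. ATG29 (YPL166W) had 28.7 and 24.6 CPM uninduced and 30.0 and 31.5 CPM induced, and did not pass (0.20, interval -0.01 to 0.41, adjusted p = 0.078); with uninduced library 1 left out it was called higher (0.31, adjusted p = 0.0134; alternatives spanned 0.0109 to 1). ATG29 overlaps SET6 on the opposite strand, which had a mean of 0.813 CPM uninduced and 0.791 CPM induced. Per kilobase of coding sequence ATG17 went from 29.0 ± 0.824 to 83.7 ± 4.76 CPM, ATG13 from 82.0 ± 0.277 to 91.7 ± 0.0679 CPM and ATG1 from 29.2 ± 1.01 to 38.7 ± 2.3 CPM (SD, n = 2), so that ATG17 stood level with ATG1 before induction and above it, though still below ATG13, after it.

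**Figure D2:**
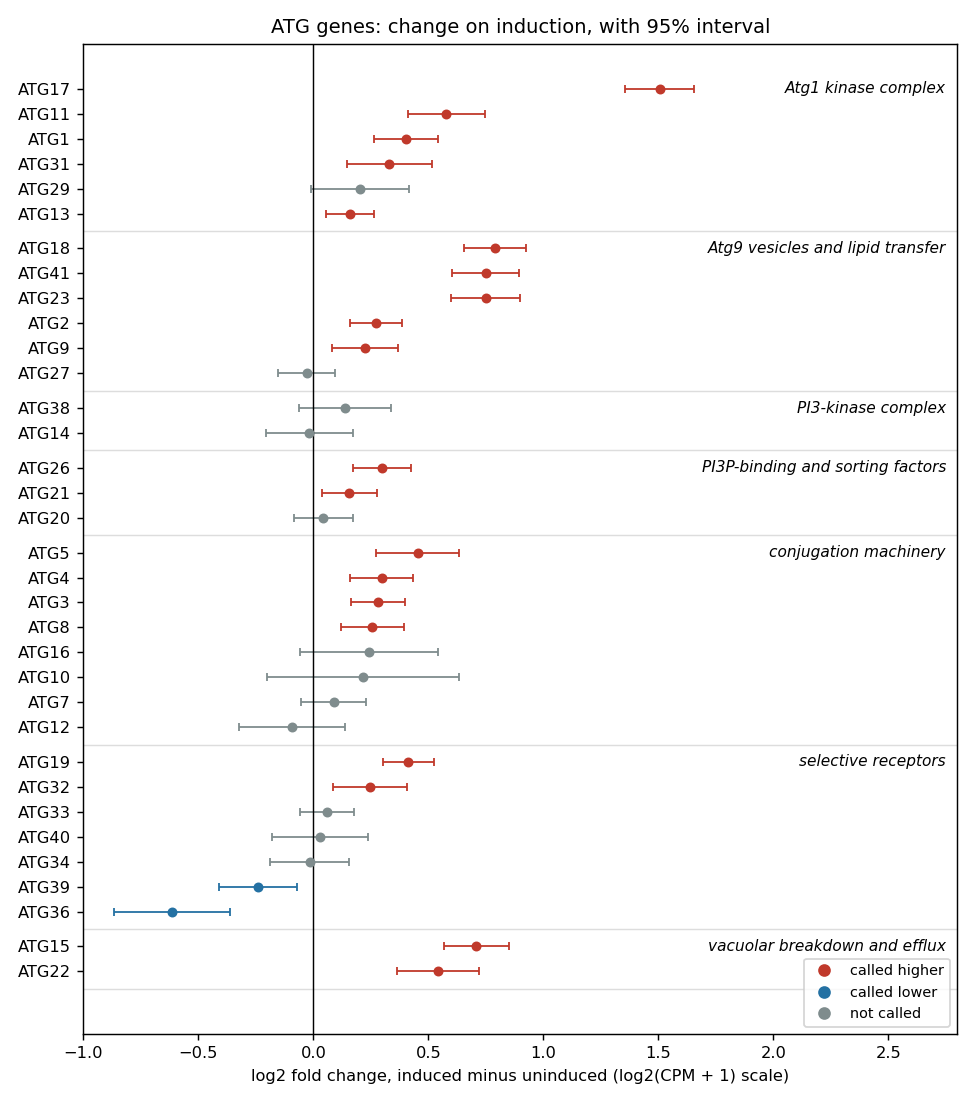
Log2 fold change (induced minus uninduced, log2(CPM + 1) scale) of each of the 34 ATG genes, with its 95% interval from the limma fit, grouped by function and coloured by the call. ATG17 stands apart at 1.505, ATG18, ATG41, ATG23 and ATG15 follow between 0.71 and 0.79, and ATG36 and ATG39 lie to the left of 0.

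Among the genes for Atg9 vesicles and lipid transfer, 5 of 6 rose (83.3%, against 35.6% of all genes) and 0 fell (against 37.0%), with a median of 0.51. ATG18 (YFR021W), a PI3P-binding propeller protein that works with Atg2, had 62.4 and 58.6 CPM uninduced and 107 and 104 CPM induced (0.79 ± 0.06, adjusted p = 1.45e-07). ATG23 (YLR431C), a peripheral membrane protein needed for Atg9 traffic, had 41.5 and 40.2 CPM uninduced and 70.5 and 68.1 CPM induced (0.75 ± 0.07, adjusted p = 6.61e-07). ATG41 (YPL250C), also known as ICY2 and linked to Atg9 movement, had 89.1 and 82.8 CPM uninduced and 154 and 137 CPM induced (0.75 ± 0.07, adjusted p = 4.79e-07). In these 3 genes every induced library lay at least 1.5 times above the mean of the uninduced pair. ATG2 (YNL242W), the bridge-like lipid-transfer protein, went from 119 and 121 CPM to 147 and 143 CPM (0.27 ± 0.05, adjusted p = 0.000461) and ATG9 (YDL149W), the membrane protein of the vesicles, from 61.7 and 58.3 CPM to 71.3 and 69.4 CPM (0.23 ± 0.07, adjusted p = 0.00833). The call of ATG9 ended without induced library 1 (0.21, adjusted p = 0.0618; alternatives spanned 0.000526 to 1). ATG27 (YJL178C), a membrane protein that travels with Atg9, overlapped between groups at 110.2 and 112 CPM uninduced and 106 and 112 CPM induced (-0.03, interval -0.15 to 0.09, adjusted p = 0.651).

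The subunits of the autophagy-specific PI3-kinase complex did not pass. ATG14 (YBR128C), which directs the kinase to the phagophore, had 32.5 and 34.6 CPM uninduced and 31.5 and 34.7 CPM induced (-0.02, interval -0.21 to 0.17, adjusted p = 0.854). ATG38 (YLR211C, 2 coding exons), which stabilises the complex, had 33.3 and 28.8 CPM uninduced and 34.8 and 33.5 CPM induced (0.14, interval -0.06 to 0.34, adjusted p = 0.199); with uninduced library 1 left out it was called higher (0.24, adjusted p = 0.0463; alternatives spanned 0.026 to 1). Their partners without an ATG name also missed the threshold. The lipid kinase gene VPS34 had means of 86.4 ± 0.0106 CPM uninduced and 89.8 ± 1.52 CPM induced (0.06, adjusted p = 0.408), VPS15 had 63.4 ± 6.48 and 70.7 ± 1.16 CPM (0.16, adjusted p = 0.0751), and VPS30, also known as ATG6, had 46.1 ± 4.48 and 41.7 ± 2.07 CPM (-0.14, adjusted p = 0.169). VPS38, the subunit that takes the place of Atg14 in the endosomal form of the complex, rose from 39.3 ± 0.77 to 54.7 ± 0.663 CPM (0.47 ± 0.07, adjusted p = 7.22e-05; SD, n = 2).

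Of 3 genes grouped as PI3P-binding and sorting factors 2 rose (66.7%, against 35.6% of all genes). ATG26 (YLR189C) was placed in this group but encodes a sterol glucosyltransferase, an activity that the name of the group does not cover. It went from 121 and 114 CPM to 141 and 149 CPM (0.30 ± 0.06, adjusted p = 0.000449). ATG21 (YPL100W), a PI3P-binding relative of Atg18 that helps place Atg8 conjugation, went from 105 and 102 CPM to 115 and 116 CPM (0.16 ± 0.05, adjusted p = 0.0215), a call that ended by DESeq2 (adjusted p = 0.0882), without uninduced library 2 (adjusted p = 0.0878), without induced library 1 (adjusted p = 0.0772) or without induced library 2 (adjusted p = 0.0915); alternatives spanned 0.000672 to 1. ATG20 (YDL113C), a sorting nexin, had 111 and 110.0 CPM uninduced and 118 and 109.5 CPM induced and did not pass (0.04, interval -0.08 to 0.17, adjusted p = 0.52). Its dimer partner SNX4, also known as ATG24, rose from 169.5 ± 7.49 to 258 ± 5.77 CPM (0.60 ± 0.05, adjusted p = 3.53e-07); the difference between these partners was not tested.

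In the conjugation machinery 4 of 8 genes rose (50%, against 35.6% of all genes) and 0 fell (against 37.0%), with a median of 0.25. All 4 rises were under 1.5-fold. ATG8 (YBL078C, chromosome II, 80378 to 80731, minus strand), the ubiquitin-like protein that is attached to the membrane, had 76.5 and 72.6 CPM uninduced and 87.0 and 91.5 CPM induced (0.26 ± 0.06, adjusted p = 0.00268). The groups did not overlap, and in the authors' deposited table ATG8 had an adjusted p of 0.247. ATG4 (YNL223W), the protease that trims Atg8 and releases it again, went from 63.4 and 65.4 CPM to 80.6 and 78.1 CPM (0.30 ± 0.06, adjusted p = 0.000955), and ATG3 (YNR007C), the conjugating enzyme of Atg8, from 114 and 109.6 CPM to 137 and 135 CPM (0.28 ± 0.05, adjusted p = 0.00044). ATG5 (YPL149W), to which Atg12 is joined, changed most of the 8, from 29.3 and 28.6 CPM to 38.6 and 41.5 CPM (0.45 ± 0.08, adjusted p = 0.000298). The other 4 were ATG7 (YHR171W), the activating enzyme of both systems, at 0.09 (interval -0.05 to 0.23), ATG16 (YMR159C), the partner of the Atg12-Atg5 conjugate, at 0.24 (-0.06 to 0.54), ATG10 (YLL042C), the conjugating enzyme of Atg12, at 0.22 (-0.20 to 0.63), and ATG12 (YBR217W) at -0.09 (-0.32 to 0.14). ATG10 and ATG16 were the lowest ATG genes in mean CPM, with 5.47 to 9.22 and 9.95 to 13.8 CPM over the 4 libraries. With uninduced library 2 left out ATG10 was called higher (0.55, adjusted p = 0.00719; alternatives spanned 0.00719 to 0.925), and ATG16 without induced library 2 (0.42, adjusted p = 0.0382; alternatives spanned 0.034 to 0.872).

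**Figure D3:**
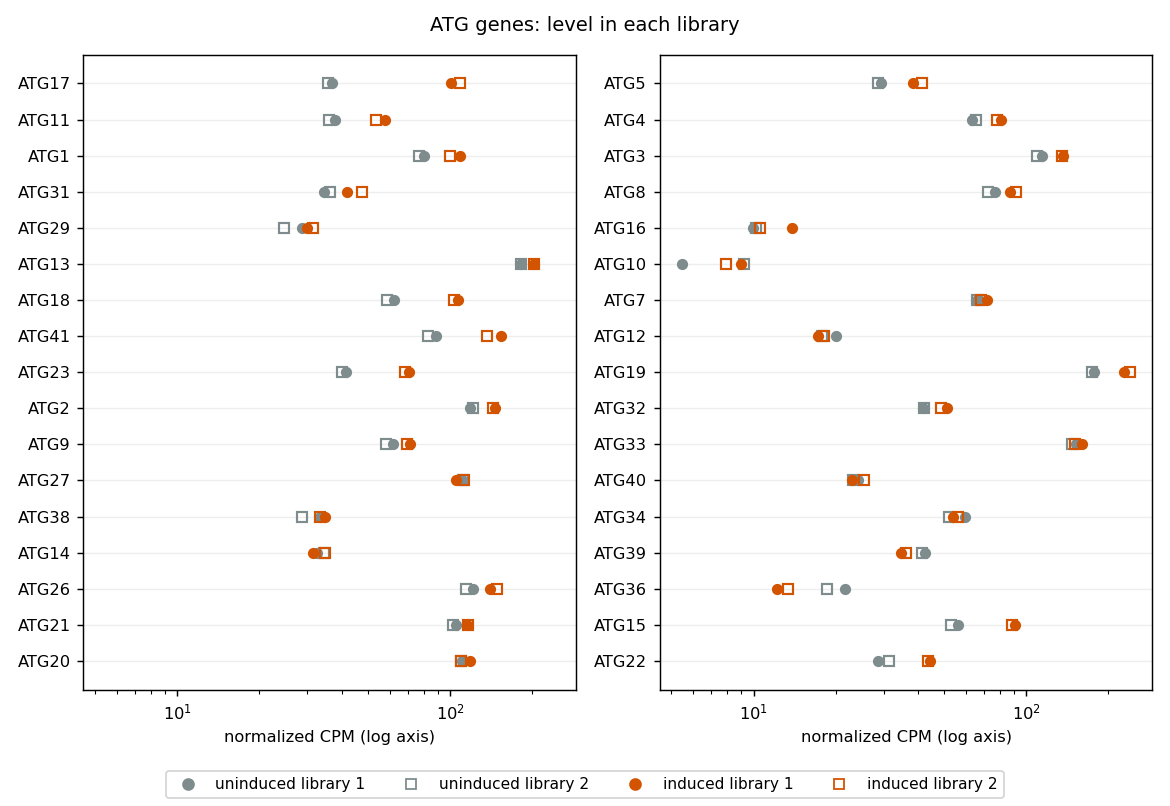
Normalized CPM (log axis) of each of the 34 ATG genes in each of the 4 libraries, grey for uninduced and orange for induced, with filled circles for library 1 and open squares for library 2. The libraries of a pair lie close together except for ATG10 and ATG16, and the groups are widest apart for ATG17.

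Of 7 selective receptor genes 2 were higher and 2 lower (28.6% each, against 35.6% and 37.0% of all genes), and 3 did not pass. Their median was 0.03. ATG19 (YOL082W, chromosome XV, 168727 to 169974, plus strand), the receptor of the Cvt pathway, had 177 and 174 CPM uninduced and 228 and 240.2 CPM induced (0.41 ± 0.05, adjusted p = 9.22e-06), with an adjusted p of 0.074 in the authors' deposited table. ATG34 (YOL083W), its paralog on the same strand 1774 bases upstream, had 59.4 and 52.0 CPM uninduced and 53.8 and 56.0 CPM induced and did not pass (-0.02, interval -0.19 to 0.15, adjusted p = 0.857). The interval of ATG19, 0.30 to 0.52, did not overlap that of ATG34, though the difference between the genes was not itself tested. ATG32 (YIL146C), the mitophagy receptor, went from 41.6 and 42.3 CPM to 51.4 and 48.6 CPM (0.25 ± 0.07, adjusted p = 0.00919), and its call ended by DESeq2 (adjusted p = 0.0512) and without induced library 1 (0.21, adjusted p = 0.0826; alternatives spanned 0.000642 to 0.897). ATG33 (YLR356W) was counted in this group but encodes a mitochondrial protein needed for mitophagy, a part that the name of the group does not cover. It had 152 and 147 CPM uninduced and 159.97 and 151 CPM induced (0.06, interval -0.06 to 0.17, adjusted p = 0.343).

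Neither ER-phagy receptor was called higher. ATG39 (YLR312C, chromosome XII, 757637 to 758833, minus strand), the receptor for the nuclear envelope and perinuclear ER, had 42.6 and 41.5 CPM uninduced and 34.8 and 36.1 CPM induced. It fell in the limma test (-0.24 ± 0.08, adjusted p = 0.014), but its call ended with libraries scaled to their total reads (-0.12, adjusted p = 0.195), by DESeq2 (adjusted p = 0.086), without uninduced library 1 (-0.22, adjusted p = 0.0506) and without induced library 1 (-0.21, adjusted p = 0.0855), and its alternatives spanned adjusted p-values of 0.0115 to 0.926. ATG40 (YOR152C, chromosome XV, 617518 to 618288, minus strand), the receptor for cortical and cytoplasmic ER, overlapped between groups at 24.1 and 23.2 CPM uninduced and 23.0 and 25.4 CPM induced (0.03 ± 0.10, adjusted p = 0.797). Its interval of -0.179 to 0.237 ended just under the median rise of the ATG genes, 0.244. That median includes ATG40, and the difference was not tested. ATG36 (YJL185C), the pexophagy receptor, fell most of all ATG genes, from 21.7 and 18.6 CPM to 12.2 and 13.4 CPM (-0.61 ± 0.12, adjusted p = 0.000374), a ratio of 0.635, and was the lower member called in the authors' deposited table, with a log2 fold change of -0.66 and an adjusted p of 0.0222.

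The ER-phagy receptors can be set beside genes that shape the ER. There 2 genes of 5 were called higher and 2 lower (40% each, against 35.6% and 37.0% of all genes, median -0.06). Against a 1.2-fold change 0 were higher and 1 lower, where 21.3% and 23.2% of all genes were. LNP1, the lunapark gene whose protein sits at the junctions of ER tubules, rose from 53.0 ± 0.427 to 69.9 ± 0.372 CPM (0.39 ± 0.07, adjusted p = 0.000135). RTN2, a reticulon that bends tubules, fell from 959.6 ± 53.4 to 498 ± 20.3 CPM (-0.95 ± 0.06, adjusted p = 9.81e-09), and SEY1, the GTPase that fuses ER tubules, fell from 191 ± 0.0829 to 149.6 ± 0.433 CPM (-0.35 ± 0.05, adjusted p = 3.45e-05). Among mitophagy helper genes 3 of 8 rose and 3 fell (37.5% each, median -0.04), shares close to those of all genes. The cell wall and mitochondrial protein gene UTH1 fell from 1069 ± 27.0 to 738 ± 26.0 CPM, HOG1, a stress-activated kinase gene, rose from 447 ± 0.962 to 617 ± 10.7 CPM, and WHI2 fell from 198 ± 9.2 to 146 ± 6.1 CPM.

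The cargo that Atg19 carries in the Cvt pathway split. AMS1, the vacuolar alpha-mannosidase gene, had 156 and 143 CPM uninduced and 497 and 513 CPM induced (1.75 ± 0.05, adjusted p = 3.93e-11). APE1, also known as LAP4, the aminopeptidase that forms the core of the Cvt complex, fell from 451 and 427 CPM to 249 and 250.1 CPM (-0.81 ± 0.05, adjusted p = 1.19e-08). APE4, a further aminopeptidase that uses this route, rose from 156 and 153 CPM to 214 CPM in both induced libraries (0.46 ± 0.05, adjusted p = 2.34e-06). Of the 4 cargo genes 2 rose (50%, against 35.6% of all genes) and 1 fell (25%, against 37.0%), with a median of 0.23.

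Both ATG genes of breakdown and efflux in the vacuole rose, where 35.6% of all genes were called higher. ATG15 (YCR068W), the phospholipase that opens autophagic bodies, had 56.3 and 53.0 CPM uninduced and 90.9 and 88.9 CPM induced (0.71 ± 0.06, adjusted p = 5.52e-07). ATG22 (YCL038C), a vacuolar membrane protein of amino acid efflux, had 28.6 and 31.4 CPM uninduced and 44.3 and 43.7 CPM induced (0.54 ± 0.08, adjusted p = 6.41e-05), with an adjusted p of 0.0909 in the authors' deposited table. Among other genes of vacuolar breakdown 5 of 7 rose (71.4%, against 35.6% of all genes) and 1 fell (14.3%, against 37.0%), with a median of 0.28. Against a 1.2-fold change 1 was higher and 0 lower, where 21.3% and 23.2% of all genes were. PRB1, vacuolar proteinase B, rose from 1417 ± 41.2 to 5148 ± 162 CPM (1.86 ± 0.07, adjusted p = 1.39e-10), and of the amino acid transporter genes AVT6 rose (0.31 ± 0.06) while AVT4 fell (-0.30 ± 0.06). YBR139W, a vacuolar carboxypeptidase also known as ATG42 and outside the naming rule, had a mean of 336 CPM uninduced and 343 CPM induced (0.03, adjusted p = 0.589).

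Levels of the ATG genes, compared per kilobase of coding sequence, covered a 24.1-fold range in uninduced cells, from ATG11 at 10.4 ± 0.417 CPM per kilobase to ATG33 at 252 ± 4.96. ATG8 (211 ± 7.71) and ATG41 (209 ± 10.9) came next and did not differ beyond their spread, followed by ATG19 (141 ± 1.5) and ATG27 (136 ± 1.46). After induction ATG41 was highest (353 ± 29.1), above ATG33 (262 ± 10.1) and ATG8 (252 ± 9), the last 2 within their spread. At the low end after induction stood ATG36 (14.5 ± 0.998), ATG11 (15.7 ± 0.816) and ATG10 (16.8 ± 1.56). Across the 34 genes the uninduced level per kilobase and the log2 fold change had a Spearman rho of -0.13, as a description over genes that share the same 4 libraries.

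Further genes that act with the ATG proteins were followed in lists. Their counts in the main test are to be read against the 35.6% of all genes called higher and the 37.0% called lower. Of 12 partners without an ATG name 3 rose (25%) and 1 fell (8.33%), with a median of 0.06. Under total-count scaling 9 were higher, but so were 2664 of all 6037 genes, whose median moved to 0.12. The fall in the main test was in NVJ1, the tether of the nucleus-vacuole junction, at 205 ± 7.41 CPM uninduced and 168 ± 7.38 CPM induced (-0.29 ± 0.05). Of 16 genes for fusion with the vacuole 6 rose (37.5%) and 4 fell (25%), and the median was 0.05. The 4 lower calls were not stable. There were 2 by edgeR (36.7% of all genes), 0 by DESeq2 (32.5%) and 0 under total-count scaling (1776 of 6037 genes). The largest changes were in SEC17 (0.49 ± 0.05), SEC18 (0.36 ± 0.05), which together recycle SNARE proteins, and the SNARE gene YKT6 (0.32 ± 0.05). Of 18 genes of TORC1 and of the EGO and SEAC complexes that control it, 7 rose (38.9%) and 3 fell (16.7%, median 0.08). The 7 higher calls became 12 under total-count scaling, where 2664 of 6037 genes were higher. In this list MTC5, a SEAC subunit gene, rose from 72.7 ± 1.32 to 112 ± 4.23 CPM. The GTPase gene GTR2 rose from 94.1 ± 2.97 to 138 ± 0.788 CPM and PIB2 from 177 ± 0.637 to 227 ± 3.03 CPM.

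Lists of other regulators had medians below 0. Of 8 genes of protein kinase A and Snf1 control, 4 fell (50%) and 1 rose (12.5%), with a median of -0.20. Against a 1.2-fold change 2 were lower (23.2% of all genes), and under total-count scaling 3 were higher (2664 of 6037 genes). SNF1, the energy-sensing kinase gene, fell from 294 ± 7.27 to 189 ± 5.8 CPM, its activating subunit gene SNF4 from 135 ± 6.82 to 85.4 ± 5.49 CPM, and RIM15, a kinase gene of nutrient signalling, rose from 145 ± 10.7 to 188 ± 3.55 CPM. Of 15 transcription regulators linked to ATG genes, 9 fell (60%) and 3 rose (20%), against 37.0% and 35.6% of all genes (median -0.17). The 3 higher calls were HAC1, GLN3 and SPT10, and GLN3 and SPT10 lost theirs by DESeq2 and without induced library 1. DAL80, a GATA-type repressor gene, fell from 37.1 ± 2.71 to 7.25 ± 0.994 CPM (-2.21 ± 0.12), MSN4, a stress activator gene, from 394 ± 13.1 to 137 ± 7.52 CPM (-1.52 ± 0.05), and HAC1, the activator gene of the unfolded protein response, rose from 653 ± 61.6 to 1243 ± 2.51 CPM (0.93 ± 0.06). UME6, whose protein represses ATG8 in growing cells, fell from 116 ± 9.63 to 74.9 ± 1.1 CPM (-0.62 ± 0.07, adjusted p = 2.69e-06). Further falls in this list were in GAT1 (-0.90 ± 0.05), GCN4 (-0.67 ± 0.06) and MSN2 (-0.47 ± 0.06). The part of these regulators in the ATG changes, that of ATG8 included, was not tested. Of 6 genes of mRNA decay and translation factors that act on ATG transcripts 4 fell (66.7%) and 0 rose (median -0.25). Against a 1.2-fold change 2 were lower, as were 23.2% of all genes. The changes were -0.49 ± 0.06 for DHH1, -0.46 ± 0.05 for PAT1 and -0.38 ± 0.06 for PSP2.

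**Figure D4:**
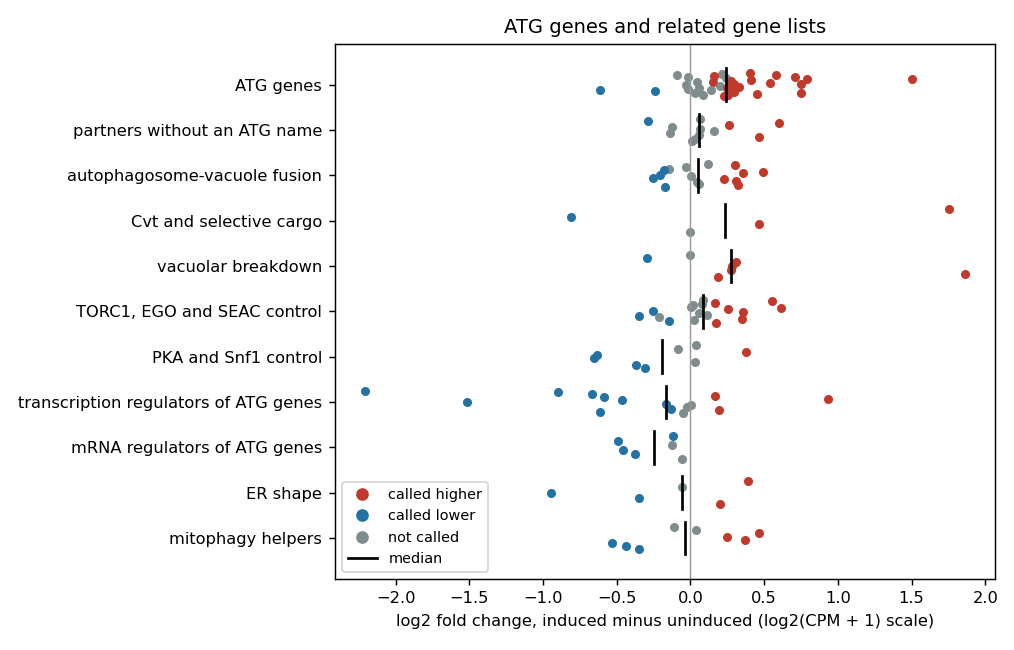
Log2 fold change (induced minus uninduced, log2(CPM + 1) scale) of the ATG genes and of the genes in each related list, 1 point per gene, coloured by the call, with the median as a black bar. Medians lie at 0.24 for the ATG genes, 0.28 for vacuolar breakdown and -0.25 for the mRNA regulators.

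Promoter windows of 300 bases, starting 400 bases before the start codon, were read from the RefSeq genome of build R64 and searched on both strands for 5 motifs. The URS1 core bound by Ume6 (GGCGGC) was in 1 of 34 ATG windows (2.94%) and in 6.13% of 6007 windows genome-wide, the Gcn4 site (TGACTC) in 5 (14.7%, against 8.47%), the GATA site (GATAAG) in 5 (14.7%, against 14.0%), the stress response element (AGGGG) in 14 (41.2%, against 23.6%) and the unfolded protein response element (CAGCGTG) in 1 (2.94%, against 1.48%). A match is a description of letters and not of a bound site. Windows were not cut at neighbouring genes. The stress letters of ATG3, ATG4 and ATG12 lie inside the neighbouring genes LRO1, SQS1 and YBP1, and the GATA letters of ATG14 inside OPY1. In the ATG8 window 89 bases lie in the neighbouring gene ILS1, outside its matches. Of the 14 genes with the stress letters 8 were called higher, a share close to the 58.8% of all ATG genes. ATG8 is shown because it alone held the URS1 letters, which occur there at 133 and 130 bases before the start codon and overlap, with Gcn4 letters at 230. ATG18 is shown for the most matches of any ATG gene, 4, and ATG19 for the unfolded protein response letters at 264. ATG39, the other ER-phagy receptor gene beside ATG40, held the stress letters at 316 and 270 and GATA letters at 251. ATG17 is shown as the gene with the largest change; its window held none of the 5 motifs, and 176 of its 300 bases lie in the neighbouring gene SPP382. Capitals mark the motif letters on either strand, and sequences run 5′ to 3′ on the strand of each gene. The windows are ATG8 chrII:80832-81131, minus strand, ATG17 chrXII:973271-973570, minus strand, ATG18 chrVI:194412-194711, plus strand, ATG19 chrXV:168327-168626, plus strand, ATG39 chrXII:758934-759233, minus strand.
ATG8: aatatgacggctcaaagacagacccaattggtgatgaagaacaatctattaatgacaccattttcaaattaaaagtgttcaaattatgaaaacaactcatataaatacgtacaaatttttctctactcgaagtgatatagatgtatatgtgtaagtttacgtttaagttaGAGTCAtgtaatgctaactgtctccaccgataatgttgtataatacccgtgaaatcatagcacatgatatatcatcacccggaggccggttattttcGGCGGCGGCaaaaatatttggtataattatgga
ATG17: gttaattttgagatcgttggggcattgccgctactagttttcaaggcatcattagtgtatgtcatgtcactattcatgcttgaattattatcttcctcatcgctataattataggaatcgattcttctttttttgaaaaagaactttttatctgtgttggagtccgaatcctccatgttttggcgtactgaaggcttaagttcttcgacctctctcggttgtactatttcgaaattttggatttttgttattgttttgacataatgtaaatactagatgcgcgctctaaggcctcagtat
ATG18: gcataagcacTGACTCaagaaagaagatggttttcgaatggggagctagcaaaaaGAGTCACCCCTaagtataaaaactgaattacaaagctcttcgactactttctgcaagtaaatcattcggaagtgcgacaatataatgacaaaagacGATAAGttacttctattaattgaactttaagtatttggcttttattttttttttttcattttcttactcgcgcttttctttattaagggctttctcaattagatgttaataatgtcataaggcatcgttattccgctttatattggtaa
ATG19: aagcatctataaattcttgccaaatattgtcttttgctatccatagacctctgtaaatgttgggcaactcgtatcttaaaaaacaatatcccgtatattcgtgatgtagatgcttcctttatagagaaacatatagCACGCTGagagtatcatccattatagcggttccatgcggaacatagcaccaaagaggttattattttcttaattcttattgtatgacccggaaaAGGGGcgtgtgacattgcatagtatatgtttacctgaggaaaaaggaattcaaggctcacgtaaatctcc
ATG39: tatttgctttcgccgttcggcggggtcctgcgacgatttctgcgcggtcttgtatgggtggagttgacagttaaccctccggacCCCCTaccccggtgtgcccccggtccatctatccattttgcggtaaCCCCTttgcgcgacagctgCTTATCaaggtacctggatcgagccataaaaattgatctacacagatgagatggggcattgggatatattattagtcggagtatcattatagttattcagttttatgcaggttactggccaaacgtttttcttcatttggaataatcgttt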

How the data were processed

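RNA of 2 uninduced and 2 induced cultures was sequenced as stranded mRNA libraries, per the labels' protocols. The authors deposited 1 table of 6782 genes. The submitters' processing notes list the tools TopHat2 (2.0.13), HTSeq and edgeR and the genome build sacCer3 or R64, with no role for any of them. Annotation, strand setting and filters were not given in the sources used here. Per the file headers the deposited signal is CPM; the columns summed to 945865 to 1041888 and within each column all values were multiples of 1 read's worth, to a tolerance of 0.001 reads, so reads were recovered for 100% of values. In uninduced library 2 the step, 0.1002 CPM, lies close to a round decimal, which is weaker evidence. The authors' deposited log2 fold changes and adjusted p-values were used as a description.

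The main test was limma 3.58.1 under R 4.3.3, fitted to log2(CPM + 1) by group with an intensity trend. It is two-sided, and p-values were adjusted by Benjamini-Hochberg across 6037 genes with a mean of at least 1 CPM (745 left out). A call is an adjusted p under 0.05. The values were a normalized signal where plain CPM had been assumed, and the test was kept. edgeR 4.0.16 and DESeq2 1.42.0 were run on the recovered reads. The fits were also run on simulated counts in which far fewer genes changed than the 72.7% called here. That run does not measure their error rate in these data. Values are mean ± SD (n = 2), fold changes ± SE, intervals 95%. No deposited column of samples went unused.

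ATG genes and related lists were chosen with earlier results of these data known. All 34 ATG genes are named; from each other list the 3 called genes with the largest change are. VPS15, VPS30, VPS34, YBR139W, UME6, GAT1, GCN4, MSN2, GLN3, SPT10, SET6 and the neighbouring genes were named after their values were seen. Lengths are coding lengths in RefSeq (R64), and promoter windows were read from its genome. ATG29 is the ATG gene that another RefSeq gene overlaps. The design text calls the cultures biological replicates.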

Additional observations from a re-analysis of the deposited data

How the results depend on the processing

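Of 15 alternatives per gene, 473 of 510 fits of the 34 ATG genes kept the call, 26 lost one and 11 gained one, and 10 genes (ATG5, ATG11, ATG15, ATG17, ATG18, ATG19, ATG22, ATG23, ATG36 and ATG41) were called under every setting. Against a 1.2-fold change 9 ATG genes were called higher and 1 lower, with 1286 higher and 1399 lower among all genes and 11 higher and 15 lower among the listed pathway genes (32 and 32 in the main test); fewer calls follow from that test's construction. Scaling libraries to their total reads moved the median of all genes to 0.12, with 2664 of 6037 genes called higher and 1776 lower. Of those calls 60% were higher, against 49.05% in the main test. That scaling gave 26 ATG genes higher and 1 lower, an ATG median of 0.36 and 50 listed pathway genes higher. DESeq2 called 18 ATG genes higher and 1 lower, and edgeR 20 and 2. The ATG median was 0.22 with a pseudocount of 5 and 0.26 by edgeR. Leaving out 1 library gave an ATG median of 0.22 to 0.26, where the median of all genes ran from -0.00693 to 0.00315. An arm of 1 library is then assumed to vary like the other. LAP3 (0.13), AVT3 (0.12) and DCP2 (0.00682) changed sign under total-count scaling, and XRN1 (0.12) and RTN1 (0.16) under quantile normalization. No called ATG gene changed sign, but 7 uncalled ones did, ATG14 under 4 alternatives, ATG34 under 3, ATG10 and ATG27 under 2 each, and ATG12, ATG20 and ATG40 under 1 each; total-count scaling moved ATG14 to 0.10 and ATG12 to 0.02. The cause was not tested. The cultures share replicate numbers but no stated pairing; within-pair differences of the groups correlated at -0.0088 over 5017 genes, and with the replicate block 20 ATG genes were higher and 2 lower. With 2 libraries per group, changes smaller than the intervals given cannot be seen.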

Other observations

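The gene that lies next to ATG17 was higher too. SPP382 encodes a factor of spliceosome disassembly and is transcribed away from ATG17, with 224 bases between the genes. It had 26.4 and 30.6 CPM in the uninduced libraries and 119 and 125 CPM in the induced libraries (2.06 ± 0.08, adjusted p = 2.24e-10), a ratio of 4.28 where ATG17 had 2.89. Divergent neighbours upstream were found for 16 ATG genes. Of the 7 of these that rose, the neighbour rose for 3, fell for 2 and did not pass for 2, shares near the 35.6% higher and 37.0% lower of all genes. ATG36, which fell, and ATG39, whose lower call ended under 5 of 15 alternatives, have the divergent neighbours GON7 (72.9 ± 1.03 to 54.8 ± 1.74 CPM, -0.41 ± 0.07) and MRPL15 (139.6 ± 7.17 to 71.9 ± 3.60 CPM, -0.95 ± 0.06), at 471 and 646 bases, and both neighbours fell, as did 37.0% of all genes. These neighbours were looked up after the ATG values were seen, and their part in the ATG changes was not tested.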
